A study of Mus musculus with 4 samples.

Results

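The 10 genes described here, of 32285 features in each library, handle cystine import, glutathione and thioredoxin metabolism and the wider antioxidant response steered by the transcription factor NRF2. They were chosen by symbol (Slc7a11, Gclc, Gclm, Hmox1, Txnrd1, Srxn1, Txnip, Idh1, Nqo1 and Gpx4), and every symbol matched 1 feature. Their mRNA was followed in 4 droplet single-cell libraries of mouse pancreatic ductal adenocarcinoma (PDAC), each made from enzyme-dissociated tumour pieces pooled from 3 animals. The study asked whether paricalcitol, a vitamin D receptor agonist, and hydroxychloroquine, a lysosomal inhibitor that blocks autophagy, make these tumours more sensitive to gemcitabine, a nucleoside analogue used as chemotherapy. The PH library came from tumours treated with paricalcitol and hydroxychloroquine, and the G library from tumours treated with gemcitabine. The GPH library was assigned by its title, because the text of its treatment label stops after a gemcitabine dose of 60 mg per kg; what else was given is not stated there. The control library came from animals given PBS. Strain, age and tumour model are not given in the labels used here. With 1 library per group there was no replicate and no test was possible. Intervals below are exact 95% intervals that cover counting error only, not the spread between animals or between cells.

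As background, the exchanger encoded by Slc7a11 brings cystine into the cell, where it is reduced to cysteine. Glutamate-cysteine ligase, made of the Gclc and Gclm products, uses that cysteine for the first step of glutathione synthesis. Glutathione and thioredoxin are kept reduced with NADPH, and the glutathione peroxidase encoded by Gpx4 spends glutathione to remove lipid peroxides, which holds back the iron-dependent cell death called ferroptosis. NRF2 (gene Nfe2l2) is held at low levels by KEAP1 and, when released, pairs with small MAF proteins to switch on many of these genes. BACH1 competes for the same sites, and the stress factor ATF4 is a further activator of Slc7a11. In pancreatic cancer both NRF2 activity and cystine import are known as tumour cell dependencies.

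After filtering, 13977 cells of PH, 4411 of GPH, 12449 of G and 10074 of control remained, with median depths of 7862, 20103, 4610 and 9635 unique molecular identifiers (UMIs) per cell in that order. GPH stood apart, with 41.0% of its barcodes over the mitochondrial limit of 20%, against 12.7% to 15.6% in the other libraries. Pairs of libraries shared 17 to 79 barcodes, of which 10 to 43 were kept. Tumour cells of the libraries also differed in their Y-linked transcripts (Kdm5d, Uty, Eif2s3y and Ddx3y), whose summed level in vimentin-high cells was 0.474 CPM in PH, 11.7 CPM in GPH, 8.34 CPM in G and 0.0743 CPM in control. In G against control and in GPH against control, treatment and the Y-linked difference cannot be told apart.

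Levels are UMIs summed over a cell class in a library and given as CPM, that is scaled to the same total for every class. They were compared between libraries within a gene, never between genes. Vimentin-high cells were the clusters with at least 2000 CPM of Vim, under 1000 CPM of Krt19 and almost no Xist, and they numbered 10824 in PH, 1525 in GPH, 2049 in G and 8083 in control. Krt19-high cells had at least 1000 CPM of the epithelial keratin transcript Krt19. They numbered 2127 in GPH and 1324 in G, but 5 in PH and 1 in control, so they were compared for GPH against G alone. Macrophage-like cells numbered 358 in PH, 49 in GPH, 1765 in G and 260 in control. Cluster 16, with 7 macrophage and 3 dendritic cell markers, was left out of this class. It held 18 cells of PH, 5 of GPH, 824 of G and 11 of control, with Slc7a11 at 68.4 CPM. Fibroblast-like cells were few, with 44, 34, 27 and 50 cells in the same order. The vimentin-high class was kept under its marker gene because 2 of its clusters carried fibroblast transcripts. Cluster 0 had 4 and cluster 4 had 3 of the 8 fibroblast markers, yet Xist in them was 1.55 and 1.15 CPM, against 471 CPM in the fibroblast-like cluster, and the tumour-cell transcript Cdkn2a was 1074 and 1279 CPM, against 460 CPM.

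**Figure D1:**
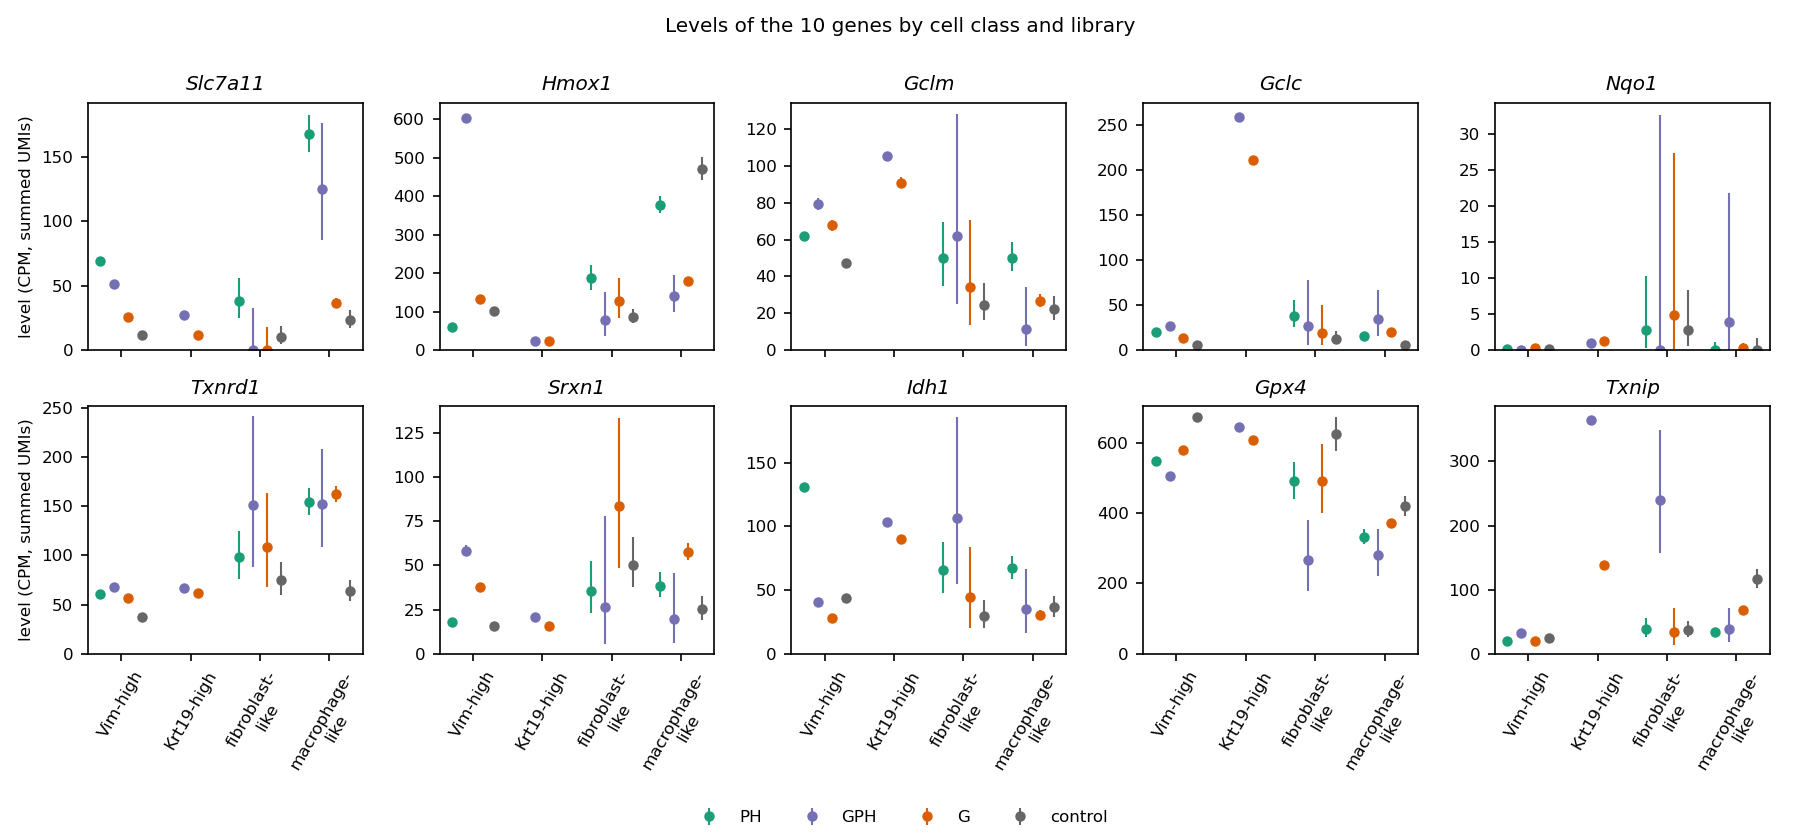
Level of each of the 10 genes (CPM of summed UMIs, vertical axis, own scale per gene) in 4 cell classes, with 1 point per library (PH, GPH, G and control from left to right) and exact 95% counting intervals as bars. Slc7a11 is lowest in control in vimentin-high and macrophage-like cells, Hmox1 stands at 605 CPM in GPH vimentin-high cells, and Gclc and Txnip are highest in Krt19-high cells.

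A gene counted as measured in a comparison when the mean of the 2 libraries' levels reached 20 CPM with at least 20 UMIs, and a ratio of 1.5-fold was the size that counted. For PH against control in vimentin-high cells, 7 of the 10 genes were measured and 3 were at least 1.5-fold higher (Slc7a11, Idh1 and Txnrd1), where 7.27% of all 4265 measured genes were. Hmox1 alone was at least 1.5-fold lower, where 7.53% of all measured genes were. For G against control in these cells, Srxn1 and Txnrd1 of 7 measured genes were higher, against 4.35% of all genes, and Idh1 was lower, against 5.57%. For GPH against control, 5 of 8 measured genes were higher (Slc7a11, Hmox1, Srxn1, Txnrd1 and Gclm) and none lower, against 20.8% and 9.21% of all genes. For GPH against G, 5 of 9 were higher (Hmox1, Slc7a11, Gclc, Txnip and Srxn1) and none lower, against 20% and 6.71% of all genes. PH, GPH and G were all set against the same control library, so these comparisons share it.

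The median log2 ratio of the measured members was 0.39 for PH against control, 0.38 for G against control, 0.80 for GPH against control and 0.63 for GPH against G in vimentin-high cells. Over all measured genes it was 0.01, -0.04, 0.14 and 0.20. The GPH comparisons therefore carry a shift over all genes, which was 0.23 for GPH against G in Krt19-high cells, and members are read against it. In vimentin-high cells the shift depended on how clusters were weighted. With clusters at equal weight it was -0.01 for GPH against control and 0.11 for GPH against G. Then 2 of 8 and 1 of 8 measured members were at least 1.5-fold higher, against 5.34% and 8.43% of all genes. In Krt19-high cells, 1 of 7 measured members was at least 1.5-fold higher in GPH than in G (Txnip) and none lower, against 17.4% and 3.25% of all genes, and the members' median log2 ratio was 0.19.

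**Figure D2:**
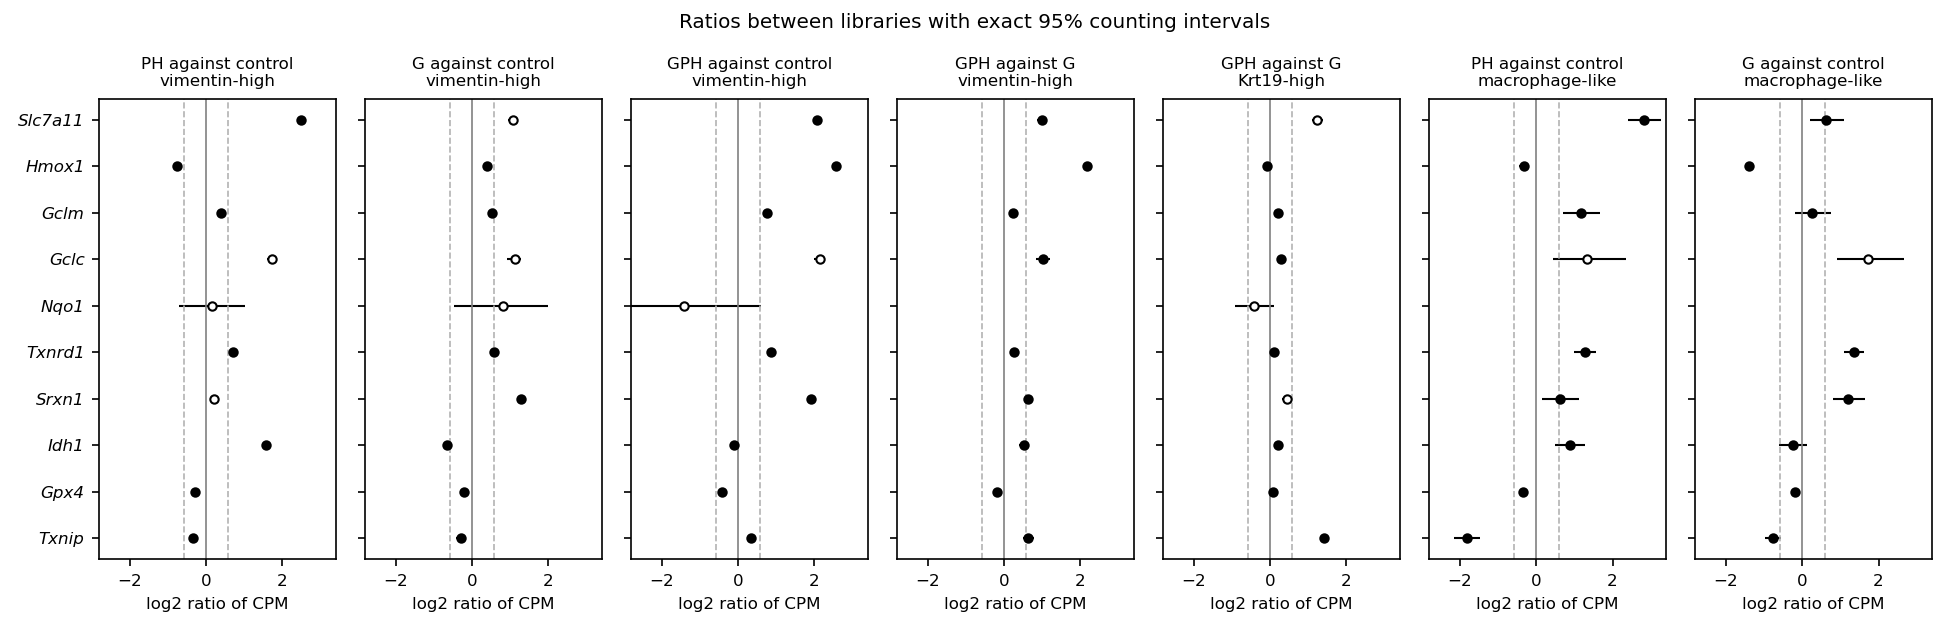
Log2 ratio of CPM for the 10 genes (rows) in the 7 comparisons (panels), the first-named library over the second, with exact 95% counting intervals as bars and dashed lines at 1.5-fold. Filled points are measured genes, open points lie under 20 CPM, genes with under 20 UMIs in both libraries together or 0 in one are not drawn, and the Nqo1 interval of GPH against control runs past the axis; Slc7a11 lies at 2.50 for PH against control, and Hmox1 at 2.56 for GPH against control.

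Slc7a11 (ENSMUSG00000027737, mm10 chromosome 3, 49892526 to 50443614, minus strand), the cystine importer, was higher in all 3 treated libraries than in control in vimentin-high cells. Its level there was 68.9 CPM in PH (67.5 to 70.4), 51.4 CPM in GPH (48.8 to 54.2), 25.9 CPM in G (24.02 to 27.9) and 12.2 CPM in control (11.6 to 12.9). The 4 intervals did not overlap, so the order PH, GPH, G, control exceeded counting error. PH was 5.64-fold above control (5.34 to 5.97), GPH 4.21-fold above control (3.91 to 4.53) and 1.99-fold above G (1.81 to 2.18). G was 2.12-fold above control (1.94 to 2.32) at a mean level under 20 CPM. The share of vimentin-high cells with a Slc7a11 UMI, after each cell was thinned to 3000 UMIs, was 13.3% in PH, 13.4% in GPH, 6.46% in G and 3.21% in control. Unthinned, the shares were 25.7%, 31.4%, 15.2% and 10.6% in the same order. Thinning left out 598, 89, 222 and 334 shallower cells in that order. T cell-like cells held a Slc7a11 UMI in 0.460% of cells in PH, 0 of 54 in GPH, 0.461% in G and 0.231% in control. Their median depths were 2202 to 3494.5 UMIs, against 9273 to 14686 in vimentin-high cells. Thinned to 1500 UMIs, T cell-like cells held one in 0 of 359 cells in PH, 0 of 48 in GPH, 0.110% in G and 0.270% in control.

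Part of the window before the RefSeq start of Slc7a11 is shown because ATF4 acts on this gene through sites of this type. It covers chr3:50443614-50443713 (GRCm38.p6, minus strand, written 5′ to 3′), and the capitals mark the matches to TGATGNAA, a motif bound by ATF4 and CEBP factors, searched on both strands.
Slc7a11: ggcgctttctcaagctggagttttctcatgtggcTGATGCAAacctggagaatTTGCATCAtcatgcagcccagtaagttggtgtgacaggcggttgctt
The 2 matches begin 66 and 47 bases before the start site, the second on the opposite strand. Of 32851 RefSeq windows in the mouse, 3.97% held this motif and 0.0700% held it at least 2 times. These shares were counted over whole windows, which are longer than the 100 bases shown. The sequence table held windows for 8 of the 10 genes, and none of the other 7 had this motif. A match describes the letters only.

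Within vimentin-high clusters, Slc7a11 was higher in PH than in control in 7 of 8 clusters with at least 20 cells in both libraries, by 2.50-fold to 4.97-fold. Cluster 0, led by Ptn, Acta2 and Hmox1, had 77.5 CPM in PH, 58.9 CPM in GPH, 56.3 CPM in G and 16.3 CPM in control. In the mitotic cluster 1 the levels were 19.1 CPM in PH, 33.7 CPM in GPH, 14.1 CPM in G and 7.65 CPM in control. Control was the lowest library in both. For GPH against control only these 2 of the 8 clusters were at least 1.5-fold higher, and cluster 0 held 72.6% of GPH vimentin-high cells. In the other 6 clusters the interval of the ratio included 1, and cluster 4, at a ratio of 0.620 (0.0737 to 2.32), held 2 UMIs in GPH. For G against control 3 of 8 clusters were at least 1.5-fold higher, and cluster 17, with 2 UMIs in G, was lower (0.114, 0.0137 to 0.425). The exception was cluster 17, led by the hypoxia-associated genes Ero1l, P4ha2 and Bnip3, with 6.61 CPM in PH (7 UMIs) and 28.96 CPM in control. Cluster 12 has Slc7a11 among its leading genes, beside the cytokine and chemokine genes Csf3, Ereg, Ccl2 and Lif, so its high level and its size are no result. It held 1181 cells of PH, 59 of GPH, 51 of G and 64 of control, and 40.5% of the Slc7a11 UMIs of PH vimentin-high cells. Its levels were 236 CPM in PH, 70.0 CPM in GPH, 71.1 CPM in G and 70.3 CPM in control, so that PH stood apart from the other libraries.

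**Figure D3:**
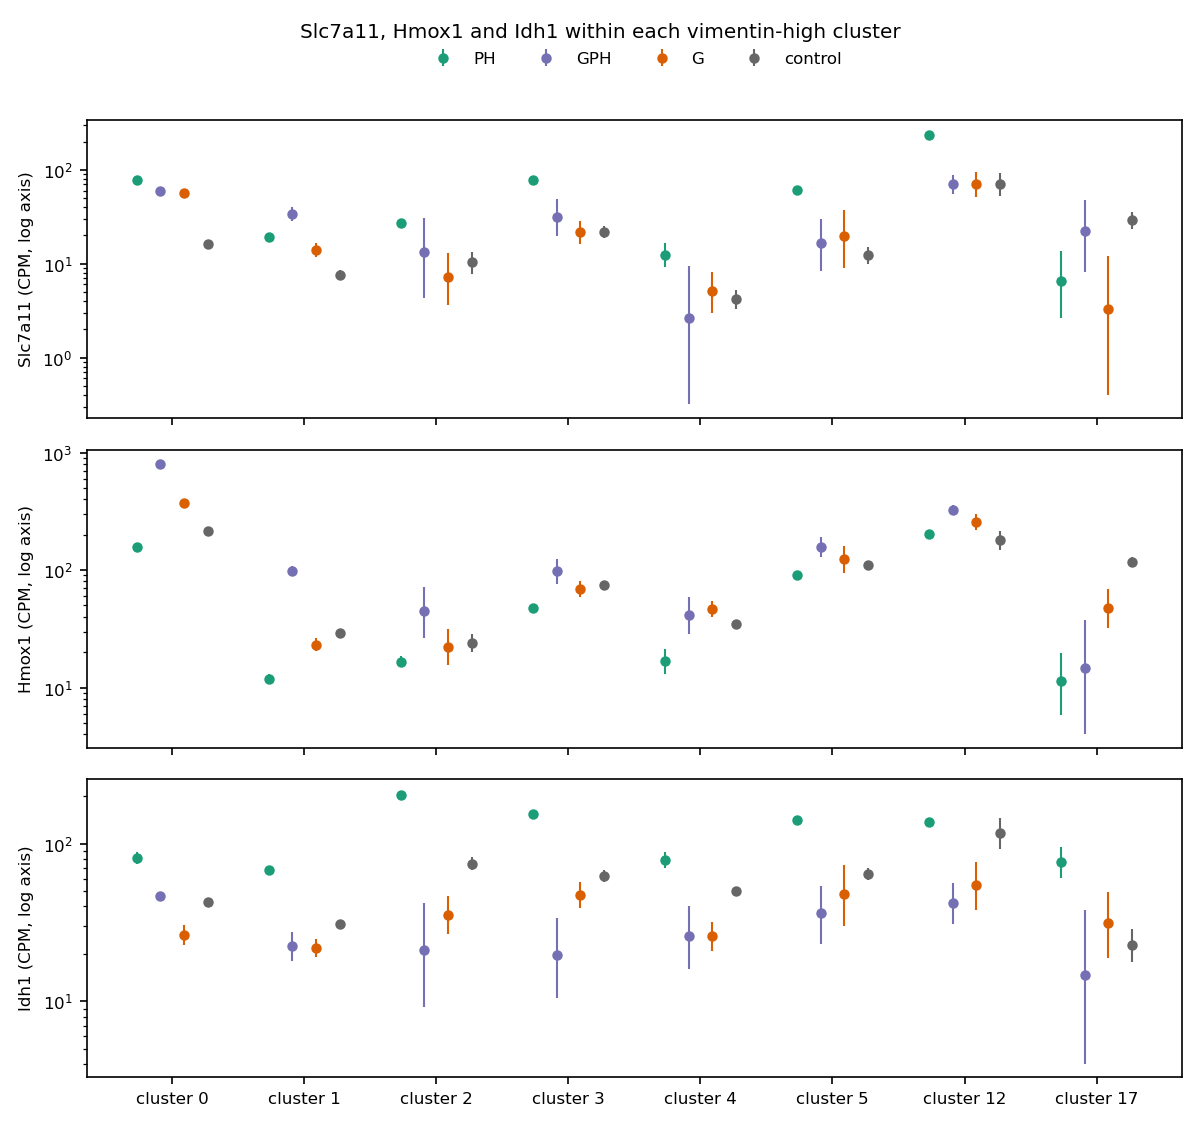
Level of Slc7a11, Hmox1 and Idh1 (CPM, log axes) in the 8 larger vimentin-high clusters, with 1 point per library (PH, GPH, G and control from left to right) and exact 95% counting intervals as bars. Idh1 is highest in PH in every cluster, Slc7a11 is higher in PH than in control in every cluster but cluster 17, and Hmox1 in GPH is far above the other libraries in cluster 0, at 798 CPM.

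In summed UMIs, macrophage-like cells showed the same order of Slc7a11 levels, with 168 CPM in PH (154 to 183), 125 CPM in GPH (85.6 to 177), 36.7 CPM in G (32.8 to 40.9) and 23.7 CPM in control (17.6 to 31.1). PH and GPH overlapped, and both lay above G and control. PH was 7.10-fold above control (5.32 to 9.66), and GPH, with 49 cells and 32 UMIs, was 5.29-fold above control (3.29 to 8.38). These ratios mix macrophage clusters, since cluster 21 held 68.7% of the class in PH, 79.6% in GPH, 2.21% in G and 65.4% in control, while cluster 9 held 78.8% in G. Within cluster 21, which was led by Ccl12, Msr1 and Arg1, PH was 5.65-fold (4.02 to 8.16) and GPH 5.18-fold (2.92 to 8.98) above control, at 129, 118 and 22.8 CPM. For G against control the class gave 1.55-fold (1.15 to 2.12), whereas the mean of each cell's own CPM gave a log2 ratio of -0.12. Cells thinned to 1500 UMIs gave -0.97. After that thinning, 20.8% of cells in PH, 26.3% in GPH, 3.91% in G and 5.79% in control held a Slc7a11 UMI. Of 11 alternative ways of processing, 9 kept G above control, 8 of them by at least 1.5-fold. The mean of each cell's CPM and the thinned cells reversed it. In the 2 clusters that could be compared, the ratios of G to control were 1.24 and 2.32. The second, in cluster 21, had an interval that included 1 (0.936 to 5.06) and 8 UMIs in G. Cluster 28, led by Marco and Saa3, held 74 cells of PH, 77 of G, 2 of GPH and none of control, and its Slc7a11 level was 309 CPM in PH and 66.4 CPM in G.

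Neutrophil-like cells had the highest Slc7a11 level of all classes, with 1092 CPM in PH (22 cells), 1008 CPM in G (835 cells) and 1110 CPM in control (30 cells). Their intervals overlapped, so no difference between treatments was detectable there. Neutrophil transcripts were rare in vimentin-high cells, where the 6 marker genes summed to 0.722 CPM in PH, 1.00 CPM in GPH, 21.6 CPM in G and 1.07 CPM in control. In macrophage-like cells they summed to 264, 106, 194 and 108 CPM in the same order. In neutrophil-like cells 9.78 to 10.4 Slc7a11 UMIs went with each 1000 marker UMIs. Fibroblast-like cells had 38.5 CPM of Slc7a11 in PH (27 UMIs in 10 cells) and 10.5 CPM in control (11 UMIs in 3 cells), a ratio of 3.68 (1.77 to 8.21). Transcripts of other cells were present in this class. Ductal tumour markers summed to 958, 1046, 172 and 1166 CPM in PH, GPH, G and control, against 1555 to 1974 CPM in vimentin-high cells. T cell markers summed to 327.5, 0, 324 and 144 CPM. Their part in the fibroblast-like values of all members was not tested. No UMI was seen in GPH or G fibroblast-like cells, which allows levels of up to 26.6 and 14.7 CPM.

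Both subunits of glutamate-cysteine ligase were higher in the 3 treated libraries than in control vimentin-high cells, the catalytic one by more. Gclc, the catalytic subunit (chromosome 9, 77754535 to 77794485), had 20.5 CPM in PH, 27.3 CPM in GPH, 13.5 CPM in G and 6.22 CPM in control in vimentin-high cells. All treated libraries lay above control beyond counting error, with GPH highest. PH was 3.30-fold (3.04 to 3.58), GPH 4.39-fold (3.97 to 4.86) and G 2.16-fold (1.90 to 2.45) above control, all at mean levels under 20 CPM and so outside the counts above. PH was at least 1.5-fold higher in each of 8 vimentin-high clusters. Gclm, the modifier subunit (chromosome 3, 122245557 to 122270732), had 62.1 CPM in PH, 79.2 CPM in GPH, 67.7 CPM in G and 47.2 CPM in control. Its differences were smaller, at 1.31-fold (1.27 to 1.36), 1.68-fold (1.60 to 1.76) and 1.43-fold (1.36 to 1.51) above control.

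In macrophage-like cells, Gclm had 50.3 CPM in PH (42.7 to 58.7), 11.7 CPM in GPH (3 UMIs), 26.8 CPM in G and 22.3 CPM in control, and PH was 2.26-fold above control (1.62 to 3.19). Gclc in these cells had 15.3 CPM in PH, 35.2 CPM in GPH (9 UMIs), 19.9 CPM in G and 6.03 CPM in control (13 UMIs). Over the class both subunits were higher in PH than in control. Within cluster 21 alone, Gclm was 1.58-fold (1.07 to 2.37) above control in PH, and the Gclc ratio of 2.06 had an interval that included 1 (0.925 to 5.04). Fibroblast-like cells had Gclc at 38.5 CPM in PH and 12.4 CPM in control (3.11-fold, 1.55 to 6.57) and Gclm at 49.8 and 24.7 CPM (2.02-fold, 1.18 to 3.49).

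Hmox1 (chromosome 8, 75093621 to 75100589), which encodes the heme-degrading enzyme heme oxygenase 1 and is a classic target of NRF2 and BACH1, parted from Slc7a11. Its level in vimentin-high cells was 60.1 CPM in PH (58.7 to 61.4), 605 CPM in GPH (596 to 614), 133 CPM in G (129 to 138) and 102 CPM in control (101 to 104). GPH stood far above the rest, and PH was the lowest. GPH was 5.91-fold above control (5.77 to 6.05) and 4.54-fold above G (4.38 to 4.70), while PH was 1.70-fold below control (1.66 to 1.75). After thinning, 58.4% of GPH vimentin-high cells had a Hmox1 UMI, against 25.0% in G, with 13.2% in PH and 19.2% in control (unthinned 79.9%, 38.9%, 25.9% and 36.8%).

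Cluster 0, of which Hmox1 is a leading gene, held 72.6% of GPH vimentin-high cells, 32.5% of G, 5.41% of PH and 31.1% of control, and 94.1% of the Hmox1 UMIs of the class in GPH. Within cluster 0 the levels were 156 CPM in PH, 798 CPM in GPH, 372 CPM in G and 215 CPM in control, so the order held there. Across clusters, GPH was at least 1.5-fold above control in 4 of 8 and below it in cluster 17, with a highest ratio of 3.71, against 5.91 over the class. Fibroblast and smooth muscle transcripts moved with this difference: the 8 fibroblast markers summed to 443 CPM in PH, 1299 CPM in GPH, 757 CPM in G and 677 CPM in control, and the 5 pericyte or smooth muscle markers to 30.2, 243, 144 and 100 CPM in the same order. All 8 and all 5 were detected in each library, and their part in the result was not tested. Macrophage markers summed to 28.5 CPM in PH, 18.5 CPM in GPH, 90.4 CPM in G and 41.9 CPM in control, and were lowest in GPH.

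In macrophage-like cells Hmox1 had 379 CPM in PH (357 to 401), 141 CPM in GPH (98.6 to 195), 179 CPM in G (171 to 188) and 472 CPM in control (443 to 501). Control was highest. PH lay below control in both classes, whereas GPH and G lay above control in vimentin-high cells and below it in macrophage-like cells. G was 2.63-fold below control (2.43 to 2.85) over the class, but within cluster 21 G was 1.78-fold above control (1.48 to 2.11), from 39 and 170 cells. For PH, cluster 21 gave 2.51-fold lower (2.25 to 2.81) against 1.25-fold lower over the class. The direction over the class depended on processing: 9 of 11 alternatives kept it, with log2 ratios from -1.33 to 0.32. After thinning to 1500 UMIs, 27.75% of macrophage-like cells in PH and 27.27% in control had a Hmox1 UMI. Cluster 28, absent from control, had 864 CPM of Hmox1 in PH. In fibroblast-like cells PH had 188 CPM and control 87.5 CPM, 2.15-fold (1.63 to 2.84). Krt19-high cells had 23.8 CPM in GPH and 25.4 CPM in G, a ratio of 0.938 (0.872 to 1.01). The GPH excess seen in vimentin-high cells was not detectable in Krt19-high cells.

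The thioredoxin branch differed gene by gene. Txnrd1 (chromosome 10, 82833951 to 82897712), the cytosolic thioredoxin reductase, had 60.9 CPM in PH, 67.6 CPM in GPH, 56.2 CPM in G and 37.4 CPM in control in vimentin-high cells. Control was lowest and GPH highest, and the 4 intervals did not overlap. The treated libraries stood at 1.63-fold (1.57 to 1.69), 1.81-fold (1.71 to 1.91) and 1.50-fold (1.42 to 1.59) above control, and GPH was 1.20-fold above G (1.12 to 1.29). In macrophage-like cells the levels were 154 CPM in PH, 152 CPM in GPH, 162 CPM in G and 63.6 CPM in control. The intervals of the 3 treated libraries overlapped, and PH was 2.43-fold (2.004 to 2.96), GPH 2.40-fold (1.64 to 3.45) and G 2.55-fold (2.14 to 3.06) above control. Inside cluster 21 PH was 2.11-fold above control (1.69 to 2.66).

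Srxn1 (chromosome 2, 152105516 to 152111376), the sulfiredoxin that restores over-oxidised peroxiredoxins, was high in GPH and G and close to control in PH in vimentin-high cells. It had 18.1 CPM in PH, 58.4 CPM in GPH, 37.8 CPM in G and 15.6 CPM in control. GPH was 3.74-fold (3.50 to 4.0) and G 2.42-fold (2.24 to 2.62) above control, while PH was 1.16-fold above it (1.09 to 1.23). Within cluster 0, however, GPH was below G, with 68.8 CPM in GPH and 79.6 CPM in G, beside 20.5 CPM in PH and 22.5 CPM in control. In macrophage-like cells it had 38.5 CPM in PH, 19.5 CPM in GPH (5 UMIs), 57.7 CPM in G and 25.1 CPM in control, and G was 2.30-fold above control (1.74 to 3.11).

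Part of the window before the RefSeq start of Srxn1 is shown because this gene alone, of the 8 with a window, held the consensus of the NRF2 and small MAF site. The part shown covers chr2:152105424-152105523 (GRCm38.p6, plus strand), and the capitals mark the match to TGANTCAGC, searched on both strands.
Srxn1: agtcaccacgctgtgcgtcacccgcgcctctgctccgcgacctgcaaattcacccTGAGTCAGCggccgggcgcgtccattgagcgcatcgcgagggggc
The match begins 45 bases before the start site. Over whole windows, which are longer than the 100 bases shown, the motif was in 1.19%. Its absence from the other windows says only that these letters were not there. Windows for Hmox1 and Gclc were not used here.

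Txnip (chromosome 3, 96557957 to 96561883), which binds and inhibits thioredoxin and restrains glucose uptake, was low in vimentin-high cells, with 19.6 CPM in PH, 31.6 CPM in GPH, 20.3 CPM in G and 24.9 CPM in control. PH was 1.27-fold below control (1.21 to 1.34) and GPH 1.56-fold above G (1.40 to 1.73). Macrophage-like cells showed a wider spread, with 33.4 CPM in PH, 39.1 CPM in GPH (10 UMIs), 68.8 CPM in G and 117 CPM in control. Every treated library lay below control there, PH by 3.50-fold (2.78 to 4.44), GPH by 2.99-fold (1.60 to 6.32) and G by 1.70-fold (1.46 to 1.97). Within cluster 21, PH was 2.47-fold below control (1.87 to 3.29), and for G, with 13 UMIs, the interval of the ratio to control ran from 0.494 to 1.67. T cell-like cells also had less Txnip in the treated libraries, with 73.5 CPM in PH, 53.8 CPM in GPH (11 UMIs), 36.9 CPM in G and 143 CPM in control. Fibroblast-like cells of GPH went the other way, with 239 CPM from 27 UMIs in 34 cells, against 37.1 CPM in control (6.46-fold, 3.80 to 10.8).

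Among the NADPH-linked enzymes, Idh1 (chromosome 1, 65158616 to 65186500), the cytosolic isocitrate dehydrogenase that makes NADPH, was above control in PH and not in GPH or G in vimentin-high cells. Vimentin-high cells had 131 CPM in PH (129 to 133), 40.5 CPM in GPH (38.2 to 43.0), 28.1 CPM in G (26.2 to 30.2) and 44.0 CPM in control (42.8 to 45.2). PH was 2.98-fold above control (2.89 to 3.07), G was 1.56-fold below it (1.45 to 1.69), and GPH lay 1.09-fold below it (1.02 to 1.16). Idh1 was higher in PH than in control in each of 8 clusters, by 1.19-fold to 3.35-fold, with cluster 2, of which it is a leading gene, at 203 CPM in PH and 74.5 CPM in control. GPH was at least 1.5-fold below control in 6 of the 8 clusters, although the class as a whole was within 1.09-fold. The share of vimentin-high cells with an Idh1 UMI after thinning was 28.4% in PH, 11.1% in GPH, 7.55% in G and 11.99% in control (unthinned 55.9%, 36.9%, 22.2% and 36.5%).

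In macrophage-like cells Idh1 had 67.4 CPM in PH, 35.2 CPM in GPH (9 UMIs), 30.8 CPM in G and 36.7 CPM in control. The PH value was 1.84-fold above control (1.41 to 2.41), but cluster 28, absent from control, had 178 CPM in PH, and within cluster 21 the levels were 28.7 CPM in PH and 34.2 CPM in control (ratio 0.841, 0.577 to 1.23). Fibroblast-like cells had 65.5 CPM in PH, 106 CPM in GPH (12 UMIs), 44.2 CPM in G (9 UMIs) and 29.5 CPM in control. PH was 2.22-fold (1.38 to 3.63) and GPH 3.61-fold (1.69 to 7.23) above control there. T cell-like cells had 4.07 to 8.08 CPM in PH, G and control and no UMI in GPH.

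Nqo1 (chromosome 8, 107388225 to 107403206), a quinone reductase and one of the best known NRF2 targets, was nearly absent. Vimentin-high cells held 27 UMIs in PH (0.210 CPM), 2 in GPH (0.0715 CPM), 9 in G (0.334 CPM) and 23 in control (0.190 CPM). No difference was detectable at this depth. Krt19-high cells had 0.940 CPM in GPH and 1.25 CPM in G, which was 3.75-fold above the vimentin-high cells of G (1.84 to 8.64). Macrophage-like cells of PH and control had no Nqo1 UMI, which allows up to 0.954 and 1.39 CPM.

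Gpx4 (chromosome 10, 80047166 to 80056439), the lipid peroxide reductase, varied least between libraries in vimentin-high cells. Its level in vimentin-high cells was 548 CPM in PH, 506 CPM in GPH, 580 CPM in G and 674 CPM in control. Each treated library was lower than control by less than 1.5-fold, at 1.23-fold (1.22 to 1.24), 1.33-fold (1.31 to 1.35) and 1.16-fold (1.14 to 1.18). Every one of 8 vimentin-high clusters had less Gpx4 in PH and in G than in control, by at most 1.36-fold and 1.24-fold. Macrophage-like cells gave the same direction, with 333 CPM in PH, 281 CPM in GPH, 371 CPM in G and 419 CPM in control. So did fibroblast-like cells, with 491, 266, 491 and 624 CPM in the same order.

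Within a library, the 2 tumour populations differed in most of these genes. Gclc was 9.44-fold higher in Krt19-high than in vimentin-high cells of GPH (258 and 27.3 CPM, 8.78 to 10.2) and 15.7-fold higher in G (211 and 13.5 CPM, 14.1 to 17.5). Txnip was 11.5-fold higher in GPH (364 and 31.6 CPM) and 6.81-fold higher in G (138 and 20.3 CPM). Idh1 was 2.55-fold and 3.21-fold higher in GPH and G. The reverse held for Hmox1, which was 25.4-fold lower in Krt19-high cells of GPH (24.3 to 26.6) and 5.25-fold lower in those of G (4.91 to 5.62). Srxn1 was 2.78-fold and 2.42-fold lower, and Slc7a11 1.86-fold and 2.21-fold lower, in GPH and G. Gpx4 was 1.276-fold higher in Krt19-high cells of GPH (1.25 to 1.30) and 1.05-fold higher in those of G. For Txnrd1 the ratio was 0.984 in GPH (0.935 to 1.04) and 1.10 in G (1.03 to 1.18). Median depth was 42026 UMIs in GPH and 29505 in G in Krt19-high cells, against 14686 and 9745 in vimentin-high cells.

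Between GPH and G, Krt19-high cells had Txnip at 364 CPM in GPH (360 to 368) and 138 CPM in G (135 to 142), 2.64-fold higher (2.56 to 2.71). Both larger clusters showed it, with 367 and 152 CPM in cluster 8 and 364 and 97.7 CPM in cluster 10. Slc7a11 was at 27.6 CPM in GPH and 11.7 CPM in G, 2.36-fold (2.14 to 2.60), with a mean level under 20 CPM. The remaining members, Nqo1 aside, lay between 0.938 and 1.35 times G, a range that includes the shift over all genes in this class. GPH had 51.1% of its Krt19-high cells in cluster 10, against 23.9% in G, and that cluster was led by intestinal and gastric genes such as Tff3, Reg1 and Muc3.

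In macrophage-like cells, 5 of 8 measured members were at least 1.5-fold higher in PH than in control (Slc7a11, Txnrd1, Gclm, Idh1 and Srxn1), against 12.6% of all measured genes, and Txnip was lower, against 11%. Their median log2 ratio was 0.75, and that of all measured genes -0.03. For G against control, 3 of 8 were higher (Txnrd1, Srxn1 and Slc7a11), against 16.2%, and 2 were lower (Hmox1 and Txnip), against 18.5%. T cell transcripts in these cells summed to 152 CPM in PH, 0 in GPH, 140 CPM in G and 46.9 CPM in control over 7 markers, of which Cd4 was at 0 in control. Their part in these values was not tested.

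The factors that steer the pathway were followed as 8 genes. In vimentin-high cells 6 of 7 measured ones were at least 1.5-fold higher in GPH than in control, against 20.8% of all measured genes, with a median log2 ratio of 1.10, against 0.14 over all genes. In GPH against G 5 of 7 were higher, against 20% of all genes, with a median of 0.84, against 0.20. These genes were compared over the whole class and not within clusters. Cluster 0 held 72.6% of vimentin-high cells in GPH, 32.5% in G and 31.1% in control, and its part in these values was not tested. Nfe2l2, which encodes NRF2, had 120 CPM in PH, 296 CPM in GPH, 129 CPM in G and 138 CPM in control. Of its small MAF partners, Mafg had 25.6, 48.5, 27.2 and 19.7 CPM in PH, GPH, G and control, and Maff 52.6, 101, 66.4 and 46.0 CPM. Sqstm1, the autophagy receptor p62, which can draw KEAP1 away from NRF2, had 319 CPM in PH, 596 CPM in GPH, 310 CPM in G and 278 CPM in control. GPH was highest for each of these genes, but in PH and G Nfe2l2 lay below control and the other 3 above it. PH and G each had 1 of 7 measured genes at least 1.5-fold above control (7.27% and 4.35% of all genes), and in both it was the repressor Bach1, at 31.6 CPM in PH and 35.1 CPM in G, against 19.8 CPM in control. Bach1 too was highest in GPH, at 41.6 CPM. In macrophage-like cells 4 of 7 were higher in G than in control, against 16.2% of all genes, with a median of 0.86, against -0.06. In PH it was 1 of 7, against 12.6%, namely Maff, at 81.8 against 20.9 CPM in control (3.92-fold, 2.84 to 5.50).

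**Figure D4:**
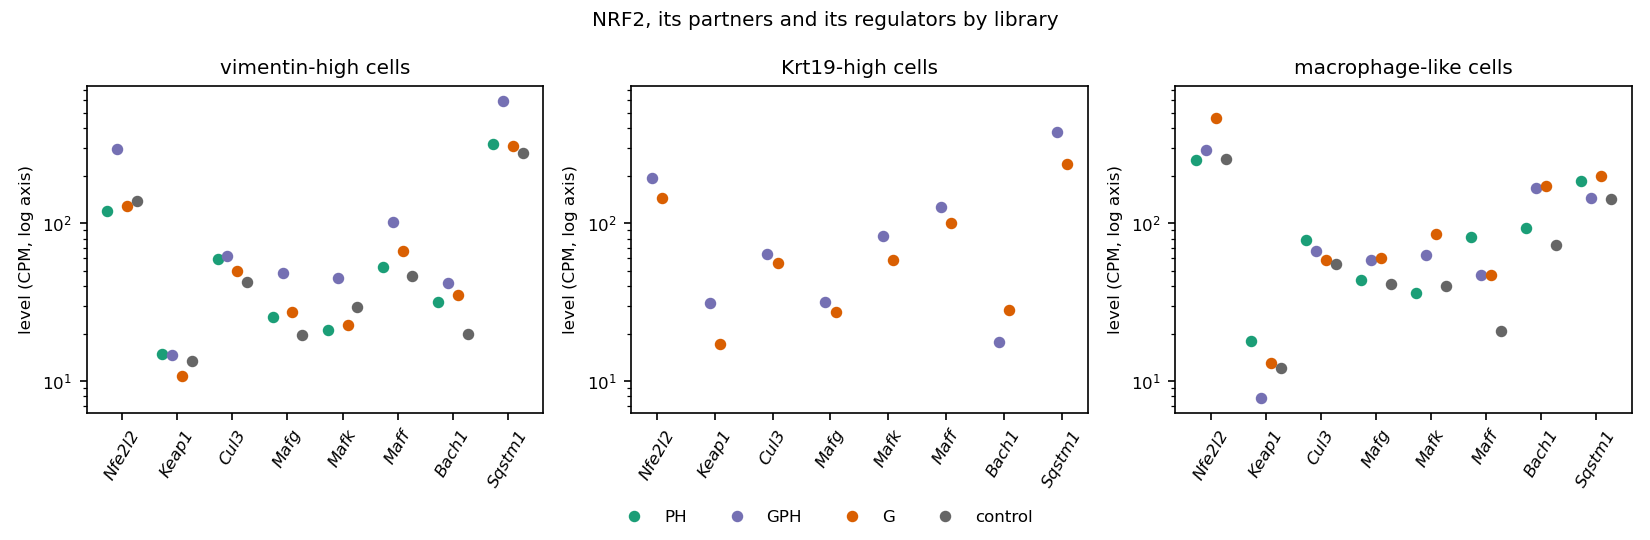
Level (CPM, log axis) of 8 genes of the NRF2 system in vimentin-high, Krt19-high and macrophage-like cells, with 1 point per library (PH, GPH, G and control from left to right); intervals are not drawn. In vimentin-high cells Nfe2l2, Sqstm1, Mafg, Mafk, Maff and the repressor Bach1 stand highest in GPH, at 296, 596, 48.5, 45.3, 101 and 41.6 CPM.

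The wider lists, also compared over whole classes only, moved less evenly. Of 19 genes of glutathione synthesis and use, 2 of 10 measured reached 1.5-fold above control in PH vimentin-high cells and none lay as far below, where 7.27% and 7.53% of all genes did. They were glutathione reductase Gsr (66.3 CPM in PH and 41.1 CPM in control) and the microsomal transferase Mgst1 (152 and 96.7 CPM). In GPH against control 3 of 12 were higher and 3 lower, against 20.8% and 9.21% of all genes, so the share higher was near that of all genes. Among them Slc3a2, the partner chain of the cystine importer, had 231 CPM in GPH and 105 CPM in control, 2.20-fold (2.13 to 2.26). In PH it had 89.0 CPM, 1.18-fold below control. Gstp1 set GPH apart from G in both tumour populations, at 47.8 against 165 CPM in vimentin-high cells and 87.2 against 292 CPM in Krt19-high cells. Of 10 thioredoxin and peroxiredoxin genes, none of 9 measured was at least 1.5-fold higher than control in PH or GPH, where 7.27% and 20.8% of all genes were. In PH 1 was lower, against 7.53% of all genes (Txn2, 63.5 CPM, against 101 CPM in control). In GPH 1 was lower, against 9.21% (Prdx2, 1092 CPM, against 1760 CPM in control). Of 7 NADPH-supply genes other than Idh1, 1 of 5 measured was higher in PH (7.27% of all genes), Pgd of the pentose phosphate pathway, at 51.4 CPM, against 34.2 CPM in control.

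Among 16 other NRF2 targets, none of 10 measured was higher in PH than in control and 2 were lower, where 7.27% and 7.53% of all genes were. In GPH against control 1 of 10 was higher and 1 lower, where 20.8% and 9.21% of all genes were. These were Ugdh, at 250 CPM in GPH and 92.6 CPM in control, and Phgdh, a serine synthesis enzyme, at 157 and 259 CPM. Of 10 ferroptosis genes, 4 of 5 measured were higher in GPH than in control, against 20.8% of all genes. They included the polyamine enzyme Sat1 (295 and 142 CPM) and the metal importer Slc39a14 (59.4 and 26.7 CPM). In PH it was 1 of 5, against 7.27% of all genes, the transferrin receptor Tfrc, at 28.5 CPM against 15.6 CPM in control. Of 10 genes of the ATF4 list, 2 of 5 measured were higher in GPH than in control, against 20.8% of all genes, namely Ddit3 (127 and 45.0 CPM) and Atf4 itself (237 and 132 CPM). In PH none of 4 was higher, where 7.27% of all genes were. Ddit3 was 1.86-fold lower there at 24.2 CPM, where 7.53% of all genes were at least 1.5-fold lower, and Atf4 was at 95.4 CPM. Slc7a11 was above control in both libraries, whereas these 2 genes were above it in GPH and below it in PH. These are mRNA levels, and the part of ATF4 in the Slc7a11 levels was not tested. Ddit3 has overlapping entries in the annotation and is given from the first of them.

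Across 16 combinations of class and library with at least 100 cells, the genes of 4750 whose log2 level followed Slc7a11 most closely were Lsmem1 (r = 0.947), Sde2 (0.943), Ier3 (0.941), Gnaq (0.929) and Tiparp (0.924). The combinations share libraries and are not independent, so the values describe likeness only. Without the single neutrophil combination, which had by far the highest level, the 5 correlations over 15 combinations were 0.935, 0.912, 0.948, 0.953 and 0.884. Of these, Ier3, an immediate early gene, had 345 CPM in PH, 536 CPM in GPH, 209 CPM in G and 234 CPM in control in vimentin-high cells, and thus a different order of libraries from Slc7a11.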

How the data were processed

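The deposited matrices hold UMI counts, not normalized by the authors. Cell Ranger 6.1 and mm10 are named in the submitters' processing notes, whereas version 7.0.1 stands in the file headers; how barcodes were called is not given in the sources used here. The lowest total of a barcode was 500 UMIs in every library, and library totals were 190110092 (PH), 143298547 (GPH), 144152432 (G) and 158887422 UMIs (control). Cells with at least 500 UMIs, at least 300 genes and at most 20% mitochondrial UMIs were kept. Doublet scores came from Scrublet in scanpy 1.11.5. Its own threshold called 1, 7, 0 and 0 barcodes in PH, GPH, G and control and was not usable, so the highest scores were removed at 0.8% per 1000 cells (2056, 168, 1573 and 977 barcodes). All libraries were clustered together without batch correction (2000 variable genes, 30 components, 15 neighbours, Leiden resolution 1.0 in igraph 0.11.9, scikit-learn 1.9.0), which gave 37 clusters. The clusters used all genes, the 10 members included. A cluster took a cell type's name when at least 3 of its markers reached 50 CPM and a 2-fold excess over other cells. Immune clusters had Ptprc at 50 CPM or more, and tumour classes had Xist under 50 CPM. Vimentin-high clusters also had a median depth of at least a set part of their libraries' medians. Clusters 7, 14 and 23 missed that depth limit and stayed unnamed. Cluster 14 did so although 4 fibroblast markers met the naming limit, with Xist at 10.9 CPM. It held 105 cells of PH, 404 of GPH, 33 of G and 416 of control, and its Slc7a11 level was 139 CPM. Krt19-high clusters had no depth limit. Among them, cluster 24, with a median of 1020 UMIs, held 244 cells of GPH (11.5% of the class) and 19 of G (1.44%).

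UMIs were summed per class and library, and ratios were given exact conditional binomial 95% intervals (scipy 1.17.1, numpy 2.4.6, pandas 2.3.3, anndata 0.12.19, Python 3.11.15, matplotlib 3.10.9). Level intervals are exact Poisson and share intervals exact binomial ones. Where a count was 0, the upper limit is 3 UMIs of the class total. PCR is accounted for by UMIs, but intervals do not cover differences between animals or between cells. The mean of both libraries' CPM decided what was measured; this reading of the 20 CPM rule was taken after values had been seen, with the pooled reading kept as an alternative. On simulated counts, 94.9% to 96.0% of intervals held the true ratio in the 7 comparisons. Those counts were drawn from the Poisson model that the intervals assume, so this checks the computation only. How the intervals fare with UMIs clumped within cells was not tested. Named genes were the 10 members and, from each of 7 lists, the highest and lowest pair of measured genes per comparison; Sqstm1 was added after its values were seen, and Ddit3 is the first of overlapping entries. Members, lists and comparisons were chosen with earlier results of these data known. Gene positions come from GENCODE vM21 (mm10), and promoter windows those of RefSeq on GRCm38.p6. Clusters that make up each class were set by hand from the limits above after they had been seen.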

Additional observations from a re-analysis of the deposited data

Results flagged for a closer look

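Hmox1 in G against control went in opposite directions in 2 cell classes. Its log2 ratio was 0.38 in vimentin-high cells (133 CPM in G and 102 CPM in control) and -1.39 in macrophage-like cells (179 and 472 CPM). The difference between the classes was not tested, since each group has 1 library. Cluster 9 held 78.8% of macrophage-like cells in G, whereas cluster 21 held 65.4% of those in control. Within cluster 21 alone, with 39 cells of G and 170 of control, the log2 ratio was 0.83.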

How the results depend on the processing

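Of 194 alternative counts of members past 1.5-fold, 157 stayed within 1.5 times the reported count and 37 did not; the cause was not tested. Percentages in brackets below are the shares of all measured genes past the same size in the same direction. For PH against control in the vimentin-high class, the 1 lower member became 0 with a 2-fold size (1.62%). It also became 0 with clusters at equal weight (7.25%) and in cluster 0 alone (6.88%). For G against control, the 2 higher members became 1 with a mitochondrial limit of 10% (4.13%) or a 2-fold size (0.809%). They also became 1 with classes from each cell's own markers (4.02%), 20 CPM in the pooled UMIs (3.44%) and clusters at equal weight (3.18%). The same came from no depth limit (4.06%) or leaving out cluster 36 (4.25%). They became 4 with a 5 CPM limit (5.87%) or without the mitotic cluster (5.4%), and 5 in cluster 0 alone (9.15%). The 1 lower member became 0 at 2-fold (1.12%) and 2 at equal weight (8.04%) or without the mitotic cluster (6.50%). For GPH against control, 5 higher became 3 at 2-fold (7.31%) and 2 at equal weight (5.34%, against 20.8% as reported). Equal weight also gave 1 lower (5.37%). For GPH against G, 5 higher became 3 by the mean of each cell's CPM (19.2%) and with the median of all genes at 0 (10.8%). They also became 3 with a total without the most abundant genes (16.2%) and in cluster 0 alone (10.6%). They became 2 with thinned cells (19.7%) or at 2-fold (5.35%), and 1 at equal weight (8.43%). In Krt19-high cells 1 higher became 2 with doublets kept (17.2%), a 5 CPM limit (20.3%) or the pooled limit (18.1%). In macrophage-like cells of PH against control, 5 higher became 3 at 2-fold (4.78%). There 1 lower became 2 with doublets kept (9.05%) or thinned cells (19.8%) and 3 in cluster 21 alone (10.1%). For G against control, 2 lower became 1 at 2-fold (6.40%), by own markers (20.2%) and in cluster 21 (20.2%). Cluster 21 gave 5 higher in place of 3, but 31.9% of all genes were higher there, against 16.2% as reported.

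Of 767 alternative ratios, 5 reversed a ratio past 1.5-fold. These log2 ratios were -0.21 for Srxn1 in GPH against G in cluster 0, -0.25 for Idh1 in PH against control and 0.83 for Hmox1 in G against control in cluster 21, and -0.12 and -0.97 for Slc7a11 in G against control macrophage-like cells by the mean of each cell's CPM and with thinned cells. The pooled limit, no depth limit, leaving out cluster 36 or cluster 24, and cluster 0 or cluster 21 alone were chosen after seeing the data. Slc7a11 in PH against control kept its direction, with log2 ratios of 1.59 to 2.59 in vimentin-high cells. In GPH, its log2 ratio ran from 0.54 to 2.37 against control and from 0.07 to 1.32 against G. No paired analysis was possible because each group has 1 library. The depth limits Nqo1 in every class, the 49 macrophage-like cells of GPH and all fibroblast-like values, and no alternative stands in for the missing replicates.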
